A study of Mus musculus with 9 samples.

Results

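The genes described here are the 33 glutamate receptor and auxiliary subunit genes of the mouse retina: 4 AMPA receptor genes, 7 NMDA receptor genes, 5 kainate receptor genes, 1 delta receptor gene, 6 metabotropic receptor genes, 8 auxiliary subunit genes of AMPA receptors and 2 of kainate receptors. They were picked by gene symbol and by no threshold on a measured value, although earlier results of these data were known when the list was drawn up, from the 25239 gene names listed in each table. All 33 were present on a single row in each of the 9 tables. All 33 also passed the filter on low values, a mean of at least 1 TPM (a transcript level scaled for transcript length and to the same sum in every library), which kept 15198 genes. *Grm6*, a receptor gene that lies outside the list, is given where it helps to place it.

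Bulk RNA-Seq was done on whole retinas at P42 (postnatal day 42) from C57BL/6J mice of 3 genotypes, in 3 libraries each. The +/+ mice carry no knock-in allele, the Cre/+ mice are heterozygous and the Cre/Cre mice homozygous for Rbpms-CreERT2. In this allele a P2A peptide and CreERT2, a Cre recombinase that needs an estrogen receptor ligand to act, are joined to the end of the coding sequence of *Rbpms*, which marks retinal ganglion cells (RGCs), so CreERT2 is made where *Rbpms* is. No ligand treatment is named for these libraries, and no floxed allele. A pair of retinas went into each library. Separate mice are not spelled out for each library, so that p-values measure the spread between these libraries. Because whole retinas were sequenced, fewer cells of a type and less RNA per cell cannot be told apart in any value below.

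Glutamate carries the signal from photoreceptors to bipolar and horizontal cells, and from bipolar cells to amacrine cells and RGCs. AMPA and kainate receptors are fast cation channels, NMDA receptors are slower channels that also need a coagonist and relief from magnesium block, and metabotropic receptors act through G proteins. Transmembrane AMPA receptor regulatory proteins (the Cacng genes listed here) and cornichons (*Cnih2*, *Cnih3*) govern the trafficking and gating of AMPA receptors, and *Neto1* and *Neto2* do so for kainate receptors. In the retina, OFF bipolar cells receive the photoreceptor signal through kainate and AMPA receptors, whereas ON bipolar cells use the metabotropic receptor encoded by *Grm6*.

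A short stretch of the pore sets whether an AMPA or kainate channel passes calcium, and it is shown here because it is the feature by which *Gria2*, the AMPA receptor gene with the highest level in these libraries, is best known. The 30 coding bases around this site, the Q/R site, are given 5′ to 3′ on the coding strand, from the GENCODE M21 annotation of GRCm38 (the same assembly as mm10), with the codon of the site in capitals.
Gria1: ggggccttcatgCAGcaaggatgtgacatt
Gria2: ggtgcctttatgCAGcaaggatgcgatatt
Gria3: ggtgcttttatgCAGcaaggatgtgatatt
Gria4: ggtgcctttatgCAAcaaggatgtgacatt
Grik1: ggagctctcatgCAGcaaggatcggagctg
Grik2: ggagctctcatgCAGcaaggttctgagctc

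The AMPA stretches all lie in coding exon sequence of exon 11, at chr11:57243082-57243111 (plus strand) for *Gria1*, chr3:80706896-80706925 (minus strand) for *Gria2*, chrX:41610253-41610282 (plus strand) for *Gria3* and chr9:4464122-4464151 (minus strand) for *Gria4*. Those of *Grik1* (chr16:87936105-87940556, minus strand) and *Grik2* (chr10:49240786-49244343, minus strand) run from exon 13 into exon 14 and thus span an intron that is not printed. The genome encodes glutamine at this site in all 6 genes, by CAG in *Gria1*, *Gria2*, *Gria3*, *Grik1* and *Grik2* and by CAA in *Gria4*. The AMPA stretches share 26 to 28 of the 30 bases with each other, the *Grik1* and *Grik2* stretches share 27, and an AMPA and a kainate stretch share 20 to 22. In *Gria2* transcripts the adenosine of this codon is edited by ADAR2, the product of *Adarb1*, so that arginine is read and the channel passes little calcium. Levels per gene do not show how many transcripts were edited. *Adarb1* itself had 143 ± 7.17 TPM in +/+, 141 ± 7.85 TPM in Cre/+ and 135 ± 8.11 TPM in Cre/Cre (SD, n = 3 each), and its log2 differences from +/+ were −0.027 ± 0.078 and −0.083 ± 0.078 (SE, limma).

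Some libraries stood apart in ways that touch the values below. By estimate, each library held 4.05 to 4.65 gigabases of aligned sequence. In Cre/Cre replicate 1 the ribosomal precursor *Rn45s* took 9.21% of all TPM, against at most 0.336% in the other 8 libraries, and the summed TPM of the 33 genes was 961 there against 1059 to 1146 elsewhere. *Xist* was at 2.08 to 3.16 TPM in Cre/+ replicate 3 and in Cre/Cre replicates 1 and 3, and at 516 to 585 TPM in the other 6 libraries. No +/+ library was low in *Xist*, so its level partly follows the number of knock-in alleles. A fit with *Xist* as a covariate cannot fully separate them. The summed TPM of 8 lens genes reached 997 in a Cre/Cre library, against at most 198 in the +/+ libraries. *Rbpms*, the targeted gene, had 43.2, 38.4 and 43.4 TPM in +/+, 31.3, 32.2 and 33.1 TPM in Cre/+ and 19.7, 19.1 and 24.2 TPM in Cre/Cre, and the groups did not overlap. The summed TPM of 10 RGC marker genes, *Rbpms* among them, was 1753 to 1823 in +/+, 1650 to 1709 in Cre/+ and 1277 to 1544 in Cre/Cre, and none of these markers was at 0 in any library. That of 5 rod markers was 44119 to 46620 in +/+, 42762 to 44568 in Cre/+ and 38325 to 44340 in Cre/Cre. The results below were also fitted without each library, with *Xist* as a covariate and under median-ratio scaling, and the part of the marker differences in them was not tested.

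To ask which receptors the whole retina expresses, the levels were first compared across all 9 libraries. The most abundant of the 33 transcripts was *Cacng7*, an AMPA receptor auxiliary subunit, with a mean of 166 TPM, followed by *Gria2* with 124 TPM and *Grik1* with 91.4 TPM. The lowest was *Grm3*, a metabotropic receptor of the class coupled to inhibition of adenylyl cyclase, with 1.81 TPM. Of the 33 genes, 8 had a mean of at least 50 TPM, 21 had at least 10 TPM and 5 were under 5 TPM. AMPA receptor auxiliary genes held 34.5% of the summed TPM of the 33 genes, AMPA receptor genes 25.6%, kainate receptor genes 16.8%, NMDA receptor genes 10.5%, metabotropic receptor genes 7.95%, kainate receptor auxiliary genes 3.16% and *Grid1* 1.55%. These shares are of transcripts, and they depend on how many genes of each class are in the list.

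**Figure D1:**
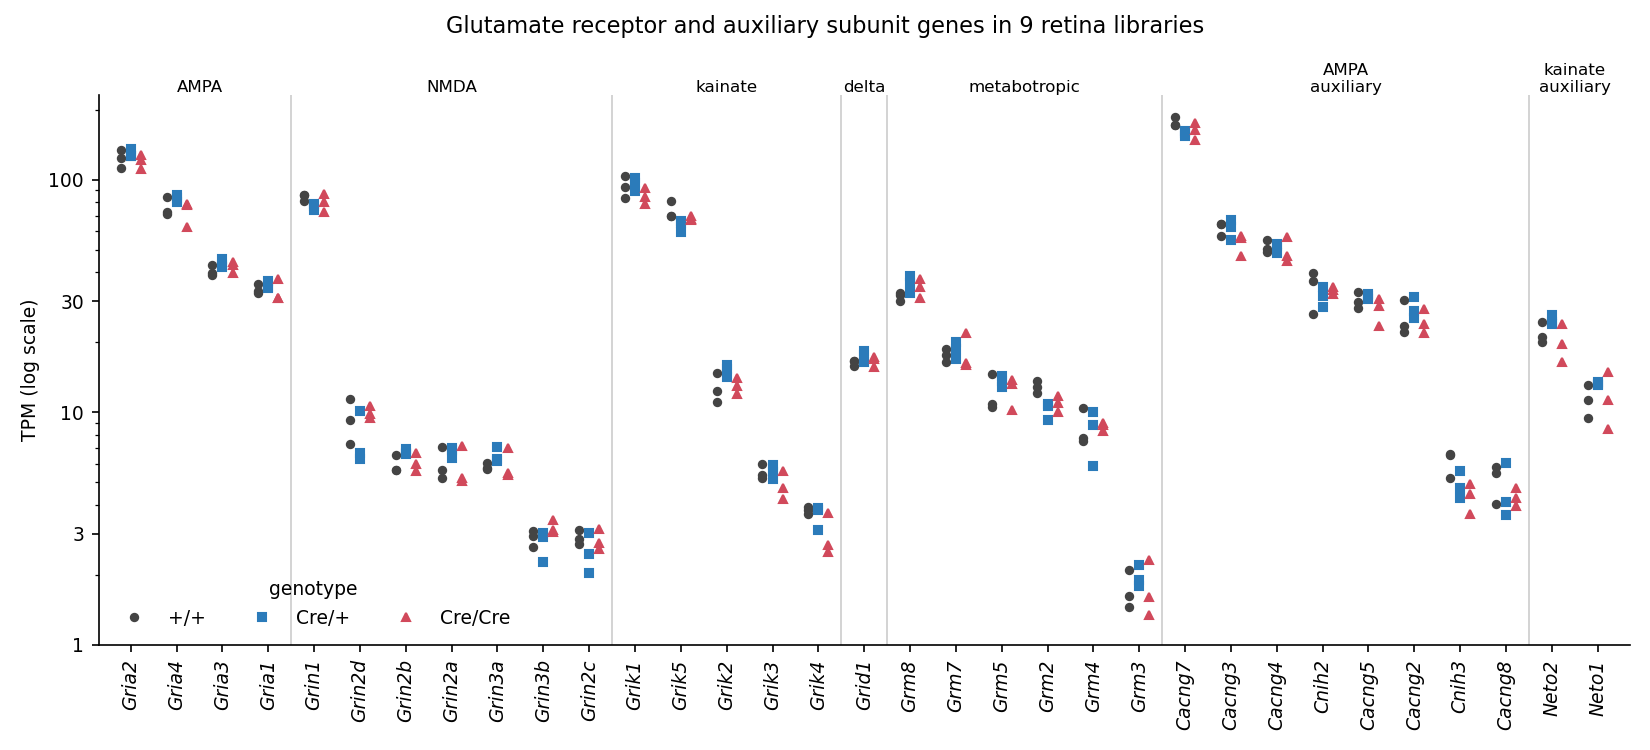
TPM of each of the 33 genes in each of the 9 libraries, on a logarithmic axis, grouped by receptor class and ordered by mean within a class; circles are +/+, squares Cre/+ and triangles Cre/Cre. Cacng7 and Gria2 lie highest and Grm3 lowest, and within most genes the 3 genotypes overlap.

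Within classes most neighbouring genes, but not all, kept their order between libraries. When each class was ordered by its means, 26 pairs of neighbours arose, of which 17 kept their order in all 9 libraries and 15 had ranges that did not overlap. The means came from the same libraries, so part of this agreement is built in. The AMPA receptor genes were the clearest case, with *Gria2* above *Gria4*, *Gria4* above *Gria3* and *Gria3* above *Gria1* in every library. The ranges of *Grik1* and *Grik5* and of *Cacng3* and *Cacng4* overlapped although the first was the higher in 9 of 9 libraries. The neighbours that overlapped and changed places between libraries were *Grin2d* with *Grin2b*, *Grin2b* with *Grin2a*, *Grin2a* with *Grin3a*, *Grin3b* with *Grin2c*, *Grm5* with *Grm2*, *Grm2* with *Grm4*, *Cnih2* with *Cacng5*, *Cacng5* with *Cacng2* and *Cnih3* with *Cacng8*. The means of *Grin2b*, *Grin2a* and *Grin3a*, for example, were 6.26, 6.18 and 6.095 TPM.

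Among the AMPA receptor genes, *Gria2* (chromosome 3, 80681450 to 80802835, mm10) encodes the subunit that limits calcium entry. It had 133, 123 and 112 TPM in +/+, 126, 126 and 135 TPM in Cre/+ and 111, 121 and 128 TPM in Cre/Cre. *Gria4*, the next in level (chromosome 9, 4417893 to 4796234), had 84.3, 72.8 and 71.2 TPM in +/+, 79.95, 83.7 and 85.4 TPM in Cre/+ and 62.5, 77.7 and 78.8 TPM in Cre/Cre. For both genes the ranges of +/+ overlapped those of either knock-in genotype, and the lowest value was that of Cre/Cre replicate 1. *Gria2* held 44.7% of the summed TPM of its class on average, between 43.7 and 46.1% over the 9 libraries, and *Gria4* held 27.8%. *Gria3* and *Gria1* had means of 42.1 and 34.01 TPM and ranges of 38.9 to 45.3 and 30.98 to 37.5 TPM.

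Among the NMDA receptor genes, *Grin1* (chromosome 2, 25291177 to 25319187), which encodes the subunit that every NMDA receptor needs, was far above the rest. It had 86.2, 81.2 and 85.8 TPM in +/+, 74.1, 76.7 and 78.4 TPM in Cre/+ and 72.2, 86.3 and 80.4 TPM in Cre/Cre. All 3 Cre/+ values were below all 3 +/+ values, whereas the Cre/Cre values overlapped those of +/+. *Grin1* held 70.7% of the summed TPM of the 7 NMDA receptor genes, and its level was 2.84 to 3.59 times the sum of *Grin2a*, *Grin2b*, *Grin2c* and *Grin2d*, the subunits that bind glutamate. Of these 4, *Grin2d* (chromosome 7, 45832483 to 45866681) had the highest mean. Its values were 7.29, 9.24 and 11.4 TPM in +/+, 10.1, 6.26 and 6.69 TPM in Cre/+ and 9.83, 10.6 and 9.47 TPM in Cre/Cre. It was above *Grin2b* in 7 of the 9 libraries, and its coefficient of variation over the 9 libraries, 20.2%, was the largest of the 33 genes. *Grin2c* (2.74 TPM) and *Grin3b* (2.94 TPM) were the lowest NMDA receptor genes.

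Kainate receptor transcripts were led by *Grik1* and *Grik5*. *Grik1* (chromosome 16, 87895897 to 88290265) encodes GluK1, the kainate receptor subunit known from OFF bipolar cells. It had 103, 93.3 and 83.5 TPM in +/+, 89.3, 96.7 and 101 TPM in Cre/+ and 78.7, 84.2 and 92.2 TPM in Cre/Cre, with overlap among all 3 genotypes. *Grik5* (chromosome 7, 25009851 to 25072369) encodes GluK5, a high-affinity subunit that needs GluK1, GluK2 or GluK3 to form a channel. It had 69.9, 69.9 and 80.8 TPM in +/+, 66.4, 65.3 and 59.2 TPM in Cre/+ and 69.8, 66.8 and 67.5 TPM in Cre/Cre. Every knock-in value of *Grik5* was below every +/+ value, in Cre/Cre by a margin of less than 1 TPM at the nearest pair. *Grik2*, *Grik3* and *Grik4* followed with 13.6, 5.29 and 3.44 TPM. *Grid1*, a delta receptor gene whose product acts as a synaptic adhesion partner, had 16.8 TPM and a range of 15.6 to 18.4 TPM.

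Among the metabotropic genes of the list, *Grm8* and *Grm7*, which encode presynaptic receptors, were highest. *Grm8* (chromosome 6, 27275121 to 28135146) had 32.4, 30.05 and 31.9 TPM in +/+, 38.6, 32.4 and 35.9 TPM in Cre/+ and 30.9, 34.4 and 37.3 TPM in Cre/Cre. *Grm7* (chromosome 6, 110645512 to 111567230) had 17.6, 16.3 and 18.6 TPM in +/+, 16.9, 18.7 and 20.1 TPM in Cre/+ and 16.3, 16.00 and 21.8 TPM in Cre/Cre. The Cre/+ values of *Grm8* were above those of +/+, although the nearest pair was the same to 3 digits, while *Grm7* overlapped in both comparisons. *Grm2* (chromosome 9, 106644534 to 106656109), known from starburst amacrine cells, had 13.6, 12.1 and 12.8 TPM in +/+, 10.8, 10.6 and 9.28 TPM in Cre/+ and 10.97, 11.8 and 9.99 TPM in Cre/Cre. All 6 knock-in values of *Grm2* were below all 3 +/+ values. *Grm5* and *Grm4* had means of 12.7 and 8.501 TPM. For scale, *Grm6*, the ON bipolar cell receptor outside the list, had 125 TPM, 3.14 to 4.51 times the level of *Grm8*.

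Among the auxiliary genes of AMPA receptors, *Cacng7* (chromosome 7, 3332825 to 3368221) encodes gamma-7, a regulatory protein of the second type. It had 172, 171 and 186 TPM in +/+, 154, 162 and 159 TPM in Cre/+ and 147, 164 and 175 TPM in Cre/Cre. The Cre/+ values of *Cacng7* were all below those of +/+, and the Cre/Cre values overlapped them. *Cacng8* (chromosome 7, 3394042 to 3416266), which lies close to it on the same strand, had a mean of 4.67 TPM, so that *Cacng7* was 26.3 to 44.7 times as high. *Cacng3* (chromosome 7, 122671744 to 122769394), a regulatory protein of the first type like stargazin, had 64.1, 64.4 and 57.1 TPM in +/+, 54.9, 62.3 and 66.8 TPM in Cre/+ and 46.98, 55.9 and 57.2 TPM in Cre/Cre. Its Cre/Cre values overlapped those of +/+, and the lowest was that of Cre/Cre replicate 1. *Cnih3* (chromosome 1, 181352628 to 181460641), a cornichon that slows the closing of AMPA receptors, had 6.54, 5.22 and 6.601 TPM in +/+, 4.702, 4.25 and 5.58 TPM in Cre/+ and 3.64, 4.43 and 4.89 TPM in Cre/Cre. All 3 Cre/Cre values of *Cnih3* were below all 3 +/+ values. *Cacng4*, *Cnih2*, *Cacng5* and *Cacng2* (stargazin) lay in between, with means of 50.6, 32.97, 29.7 and 25.9 TPM.

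Of the kainate receptor auxiliary genes, *Neto2* (chromosome 8, 85636718 to 85700924) was the higher. It had 24.3, 21.1 and 20.1 TPM in +/+, 23.9, 24.3 and 26.1 TPM in Cre/+ and 16.5, 19.6 and 23.9 TPM in Cre/Cre. *Neto1* had 13.01, 11.3 and 9.46 TPM in +/+, 13.02, 13.2 and 13.4 TPM in Cre/+ and 8.44, 11.3 and 14.9 TPM in Cre/Cre. *Neto2* was above *Neto1* in all 9 libraries, and both genes had their lowest value in Cre/Cre replicate 1. The Cre/+ values of *Neto1* were above those of +/+, although the nearest pair, 13.02 and 13.01 TPM, almost met.

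**Figure D2:**
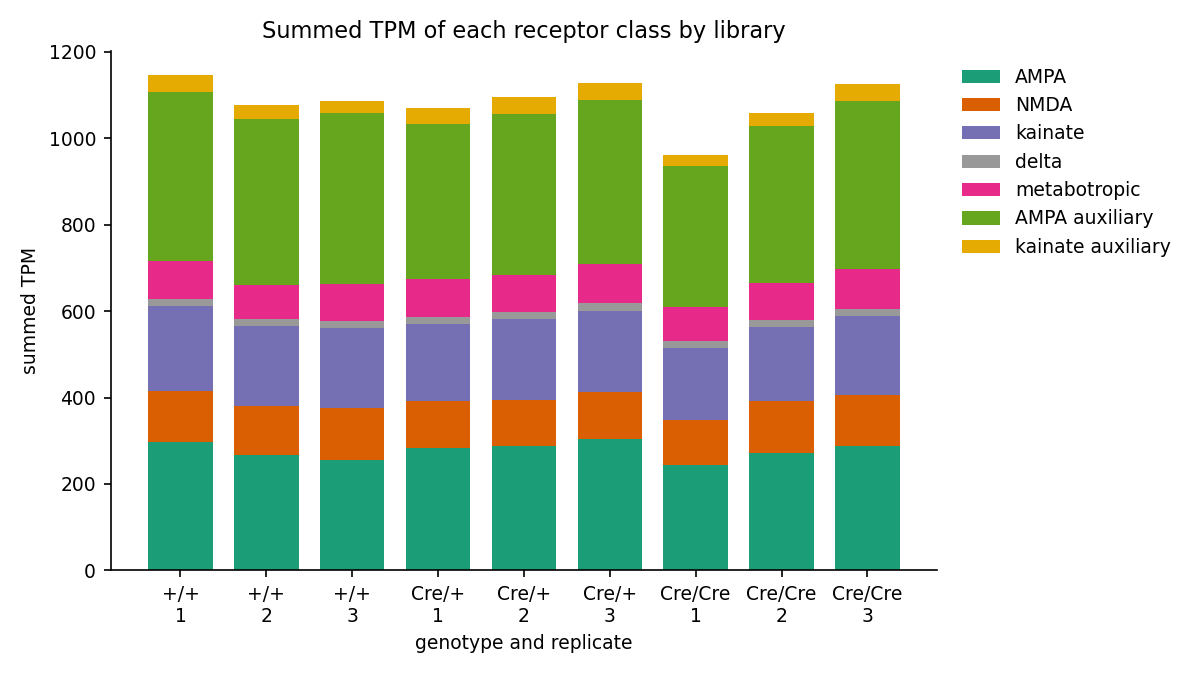
Summed TPM of each receptor class, stacked for each of the 9 libraries, with genotype and replicate number on the horizontal axis. The stacks sit between 1059 and 1146 TPM except for Cre/Cre replicate 1 at 961 TPM, and the proportions of the classes change little.

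To assess whether the heterozygous allele changed these genes, Cre/+ was compared with +/+. No member changed past the adjusted threshold. The AMPA receptor and kainate receptor auxiliary genes had small positive estimates (4 of 4 and 2 of 2). Of the AMPA receptor auxiliary genes, 6 of 8 had small negative ones, where 49.6% of all genes were below 0. Without +/+ replicate 1, 4 of these 8 were below 0 (49.0% of all genes). With limma on log2(TPM + 1), fitted over all 15198 genes and all 9 libraries with Benjamini-Hochberg adjustment, 0 of 33 genes reached an adjusted p of 0.05, against 0.00658% of all genes tested. The smallest adjusted p was 0.405, for *Grm2*. At an unadjusted p under 0.05 there were 2 of 33 genes, both lower in Cre/+, against 10.7% of all genes (5.82% lower and 4.9% higher). These 2 were *Grm2*, with a log2 difference of −0.30 ± 0.12 (SE, lower in 3 of 3 libraries), and *Grik5*, with −0.20 ± 0.081 (limma, adjusted p = 0.409, lower in 3 of 3 libraries). Neither passed the correction, and with Cre/+ replicate 3 left out, or with *Xist* as a covariate, neither had an unadjusted p under 0.05.

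The differences on the log2(TPM + 1) scale were small. The median over the 33 genes was 0.059 on the log2 scale, against 0.0014 over all genes, 14 of 33 were below 0 (49.6% of all genes), and the estimates ran from −0.30 (*Grm2*) to 0.24 (*Grik2*). For 31 of 33 genes the whole 95% interval lay within a 1.5-fold change of TPM + 1 in either direction, against 82.6% of all genes. The exceptions were *Grin2d* (−0.63 to 0.11) and *Cnih3* (−0.63 to 0.057). All 33 intervals lay within a 2-fold change of TPM + 1, against 95.4% of all genes. Here and below these bounds are of TPM + 1, which understates the change of low genes. In TPM itself the bounds are wider for genes at a few TPM, such as *Grm3*, *Grin2c* and *Cacng8*. The levels of +/+ and Cre/+ did not overlap for 4 lower genes (*Grin1*, *Grik5*, *Grm2* and *Cacng7*) and 4 higher ones (*Grin2b*, *Grin3a*, *Grm8* and *Neto1*), where 10.3% and 11.9% of all genes did the same, so that both counts were close to the background.

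**Figure D3:**
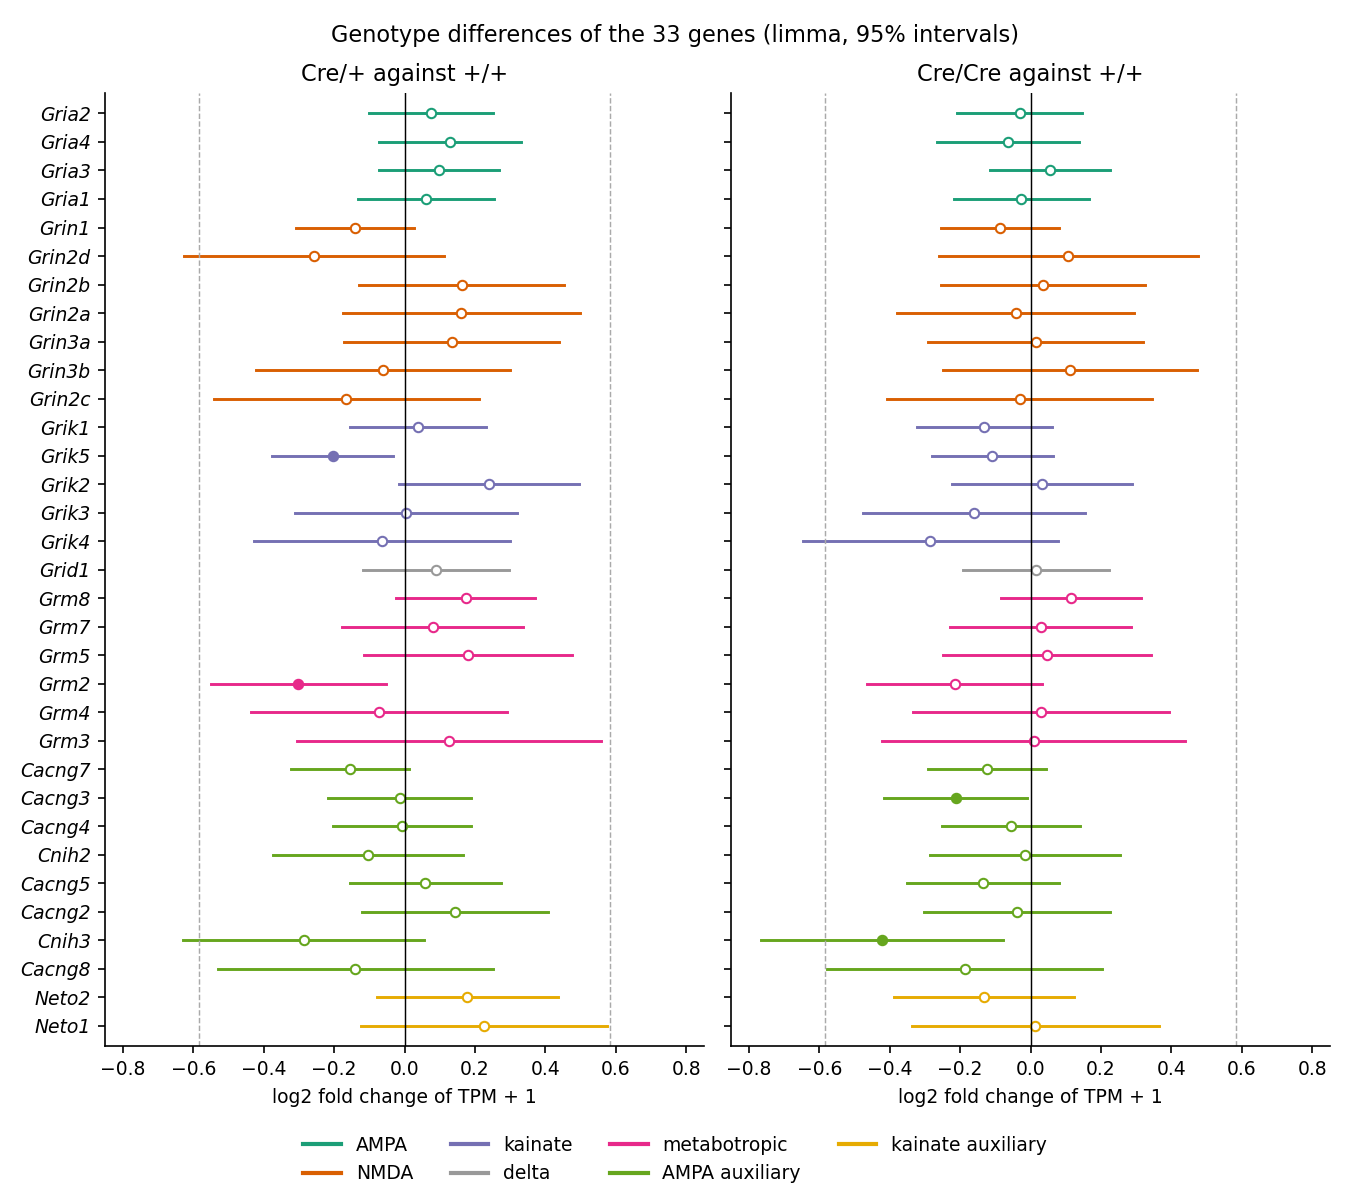
Log2 fold change of TPM + 1 for each of the 33 genes in Cre/+ (left) and Cre/Cre (right) against +/+, with 95% intervals from limma, coloured by receptor class; filled points have an unadjusted p under 0.05 and dashed lines mark a 1.5-fold change. Of the intervals, 31 of 33 stay inside the dashed lines in each panel, and only Grm2 and Grik5 (left) and Cacng3 and Cnih3 (right) are filled.

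The homozygous allele was assessed by comparing Cre/Cre with +/+. *Cnih3* and *Cacng3* had the lowest unadjusted p, the 8 AMPA receptor auxiliary genes all had estimates below 0, and no member changed past the adjusted threshold. By limma, 0 of 33 genes reached an adjusted p of 0.05 (0.00658% of all genes), and the smallest was 0.655, for *Cnih3*. At an unadjusted p under 0.05 there were 2 of 33 genes, both lower, against 6.97% of all genes (5.39% lower and 1.58% higher). *Cnih3* differed by −0.42 ± 0.16 (SE, lower in 3 of 3 libraries) and *Cacng3* by −0.21 ± 0.10 (limma, adjusted p = 0.704, overlapping +/+). With Cre/Cre replicate 1 left out, 0 members had an unadjusted p under 0.05, as was the case without +/+ replicate 1, and without Cre/Cre replicate 1 the estimates of *Cnih3* and *Cacng3* were −0.33 and −0.12.

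The median over the 33 genes was −0.031 in Cre/Cre, against −0.024 over all genes, and the estimates ran from −0.42 (*Cnih3*) to 0.11 (*Grm8*). As in Cre/+, 31 of 33 intervals lay within a 1.5-fold change (83.6% of all genes), the exceptions being *Grik4* (−0.65 to 0.079) and *Cnih3* (−0.76 to −0.079), and all 33 lay within a 2-fold change (95.4%). The groups did not overlap for 3 lower genes, *Grik5*, *Grm2* and *Cnih3* (8.05% of all genes), and for 0 higher ones (2.7%). *Grik5* and *Grm2* were the 2 members that were below +/+ without overlap in both knock-in genotypes, where 3.63% of all genes were, and 0 members were above +/+ in both (0.908%). These 2 comparisons share the +/+ libraries. *Grik5* differed by −0.11 ± 0.081 (SE, limma, adjusted p = 0.862) and *Grm2* by −0.22 ± 0.12 (adjusted p = 0.78) in Cre/Cre.

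The 8 AMPA receptor auxiliary genes had a median of −0.13 in Cre/Cre, while 57.7% of all genes had an estimate below 0. Without Cre/Cre replicate 1, 6 of the 8 were below 0 and the median was −0.042. Under median-ratio scaling 7 of the 8 were below 0. Kainate receptor genes were below 0 in 4 of 5 cases, with a median of −0.13, and metabotropic genes in 1 of 6, with a median of 0.030. For the metabotropic genes this direction turned with FPKM (5 of 6 below 0, median −0.012), with *Xist* as a covariate (4 of 6, −0.072), without +/+ replicate 2 (5 of 6, −0.016) and without Cre/Cre replicate 3 (4 of 6, −0.054). Over all 33 genes, 20 were below 0. With FPKM, the authors' value per length and depth that is not rescaled to a fixed sum, 29 were (72.1% of all genes), and with median-ratio scaling 18 were (48.99%). Without Cre/Cre replicate 1 the count was 13 (43.8%), and without Cre/Cre replicate 3 it was 27 (65.9%).

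**Figure D4:**
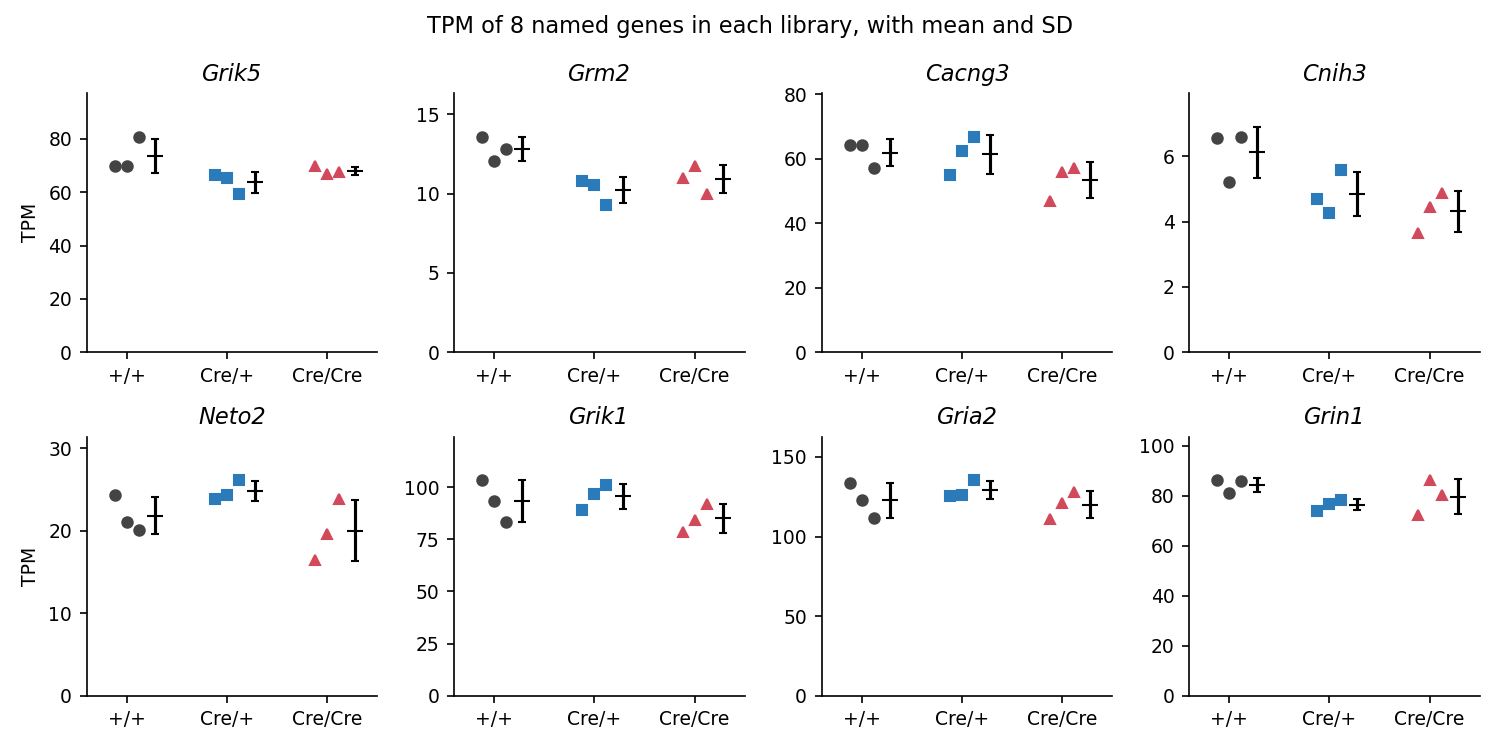
TPM of Grik5, Grm2, Cacng3, Cnih3, Neto2, Grik1, Gria2 and Grin1 in each library (points, replicates 1 to 3 from left to right in each genotype), with the mean and SD of the 3 libraries beside them; each vertical axis starts at 0. For Grik5 and Grm2 all knock-in points lie below the +/+ points, for Cnih3 those of Cre/Cre do, and the other genes overlap between +/+ and Cre/Cre.

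Between Cre/Cre and Cre/+, 0 of 33 genes reached an adjusted p of 0.05 in limma (0.0132% of all genes), the smallest being 0.740. Only *Neto2* had an unadjusted p under 0.05, against 6.58% of all genes (4.2% lower and 2.38% higher), with a difference of −0.31 ± 0.12 (SE). Its Cre/Cre values, 16.5 to 23.9 TPM, overlapped those of Cre/+ at the edge. The groups did not overlap for 3 lower genes, *Gria4*, *Grik2* and *Cacng5* (7.23% of all genes), and 2 higher ones, *Grin3b* and *Grik5* (4.76%). Of the 33 estimates 24 were below 0 (59.2% of all genes). All intervals but that of *Grin2d* (−0.0043 to 0.73), 32 of 33, lay within a 1.5-fold change (83.1%). In a trend over 0, 1 and 2 knock-in alleles, 0 of 33 genes passed (0.00658% of all genes), and *Cnih3* and *Cacng3* were the members with an unadjusted p under 0.05 (6.24% of all genes, 4.82% lower and 1.42% higher), at −0.21 ± 0.078 and −0.11 ± 0.050 per allele. All 33 intervals of the change per allele lay within 1.5-fold (96.6% of all genes) and 2-fold (98.9%).

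In Cre/+, the direction of these small differences followed the base composition of the transcripts. GC content was taken from the longest coding transcript of each gene in GENCODE M21 and ranged from 36.5% (*Neto2*) to 65.1% (*Cacng8*) over the 33 genes, with a median of 51.2%. In Cre/+ all 17 genes at or below the median had an estimate above 0, with a median of 0.13, and 14 of the 16 genes above it had an estimate below 0, with a median of −0.12. Spearman's rho between GC content and the Cre/+ estimate was −0.858 across the 33 genes and −0.63 across the 13629 tested genes with a GC value. The genes share the same 6 libraries and are not independent, so this is a description. With each library left out in turn, rho over the members ran from −0.89 to −0.723. In Cre/Cre rho over the members was −0.229, and it was −0.637 without +/+ replicate 1 and 0.105 without +/+ replicate 3, so that this value rested on single libraries. Across the tested genes with a GC value it was −0.359 in Cre/Cre, and −0.472 to −0.179 with each library left out. Between Cre/Cre and Cre/+ rho was 0.674 over the members, 0.56 to 0.731 with each library left out, and 0.388 over the tested genes.

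Single libraries differed in this respect within a genotype too. Against the mean of all 9 libraries, the members' deviations had a rho with GC content of −0.327, 0.65 and 0.841 in the 3 +/+ libraries, −0.451, −0.623 and −0.448 in Cre/+, and 0.52, 0.402 and −0.37 in Cre/Cre. The gene classes differ in GC content, with 36.8% to 48.5% in the AMPA receptor genes and 51.2% to 65.1% in their auxiliary genes. *Grm2* (56.9%) and *Grik5* (62.3%) both lie above the median, as do *Cnih3* (53.3%) and *Cacng3* (54.6%). An alternative added once the data had been seen removed each library's smooth trend with GC content. The Cre/+ estimates of *Grik5* and *Grm2* were then −0.034 and −0.20, that of *Cnih3* in Cre/Cre was −0.37 and that of *Cacng3* was −0.15. In the same values 2 of the 4 AMPA receptor genes were below 0 in Cre/+, and 2 of the 8 AMPA receptor auxiliary genes, with 6 of 8 in Cre/Cre. Beyond these adjusted values, the part of base composition in the genotype differences was not tested.

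**Figure D5:**
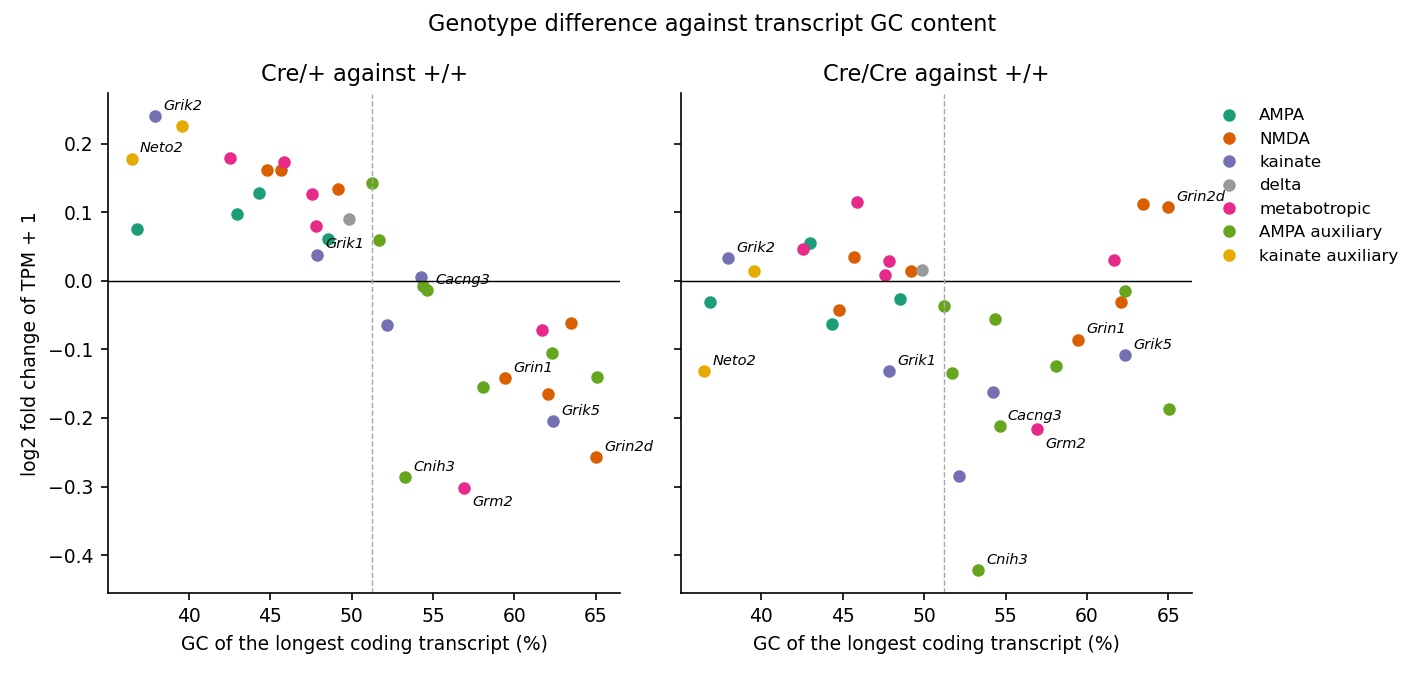
Log2 fold change of TPM + 1 against the GC content of the longest coding transcript for the 33 genes, in Cre/+ (left) and Cre/Cre (right) against +/+; colours mark receptor classes and the dashed line the median of 51.2%. In the left panel the points fall from above 0 at low GC content to below 0 at high GC content, and in the right panel they do so much less.

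Ratios between genes were compared because they are not touched by the scaling of a library. Of 9 ratios computed, those of *Grin1* to the summed Grin2 genes, *Gria2* to *Gria1*, *Neto2* to *Neto1*, *Cacng7* to *Cacng8*, and *Grik4* with *Grik5* to the other kainate receptor genes overlapped in every comparison. The ratio of *Grik1* to *Grik2* was 7.04, 7.55 and 7.56 in +/+, 6.32, 6.34 and 6.36 in Cre/+ and 6.600, 6.49 and 6.59 in Cre/Cre. The groups did not overlap, but an exact two-sided permutation test of 3 against 3 libraries cannot give a p below 0.1, and its adjusted p was 0.338 over 27 such tests. *Grik1* and *Grik2* differ in GC content (47.9% and 37.9%). The ratio of summed AMPA to summed NMDA receptor genes was 2.498, 2.37 and 2.13 in +/+, 2.58, 2.67 and 2.73 in Cre/+ and 2.35, 2.28 and 2.47 in Cre/Cre. It was higher in Cre/+ without overlap (exact permutation p = 0.1, the smallest possible) and overlapped between +/+ and Cre/Cre. The ratio of summed AMPA auxiliary to summed AMPA receptor genes was 1.32, 1.44 and 1.54 in +/+, 1.27, 1.300 and 1.25 in Cre/+ and 1.33, 1.33 and 1.35 in Cre/Cre, lower in Cre/+ than in both others without overlap. *Grm6* to *Grm8* was lower in Cre/Cre than in +/+ without overlap (3.14, 3.33 and 3.44 against 4.34, 4.51 and 3.78). The groups did not overlap in 8 of the 27 tests. No exact permutation p could fall below 0.1, so the smallest adjusted p, 0.338, cannot show whether a ratio differed. GC content also differs between the summed classes, with 36.8% to 48.5% in AMPA receptor genes and 44.8% to 65.0% in NMDA receptor genes. It was 51.2% to 65.1% in the AMPA auxiliary genes, and its part in the ratios was not tested. How often ratios of other genes do not overlap was not computed.

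In 4 lists of genes around these receptors, and for *Grm6*, 0 genes passed the adjusted threshold in limma, and the genes named here are those with an unadjusted p under 0.05. *Grm6* had 140.4, 136 and 121 TPM in +/+ and 96.9, 115 and 128 TPM in Cre/Cre, a difference of −0.23 ± 0.10 (SE, limma, adjusted p = 0.67). Among 15 other AMPA receptor partners, *Nptx1*, a secreted pentraxin that clusters AMPA receptors, differed by −0.27 ± 0.076 in Cre/Cre (limma, adjusted p = 0.542), and *Olfm2* by −0.27 ± 0.089 in Cre/+ (adjusted p = 0.384). Among 18 postsynaptic scaffold genes, *Dlg1* differed by 0.22 ± 0.10 in Cre/+ and *Shank1* by −0.22 ± 0.084 in Cre/Cre. None of 9 genes of glutamate transport and metabolism and none of 3 RNA editing genes had an unadjusted p under 0.05 in either comparison. In Cre/+, 3 of the 10 RGC markers (*Rbpms*, *Sncg* and *Tubb3*) had an unadjusted p under 0.05 and were lower, where 5.82% of all genes were. In Cre/Cre, 8 of the 10 were (5.39% of all genes), of which *Rbpms* alone passed the adjusted threshold (−0.96 ± 0.10, limma, adjusted p = 0.000581), beside 2 of 33 receptor and auxiliary genes, and this difference between the lists was not tested. *Slc17a6* is in both the transport and the RGC list, and *Grm6* is also a bipolar cell marker. Summed markers of the cells that carry many of these receptors were 691 to 748 TPM in +/+, 722 to 745 TPM in Cre/+ and 574 to 742 TPM in Cre/Cre for 5 bipolar cell genes, and 752 to 786, 765 to 805 and 687 to 788 TPM for 6 amacrine cell genes. Blood genes, 5 in number, summed to 150 to 182 TPM in +/+, 92.5 to 105 TPM in Cre/+ and 185 to 300.5 TPM in Cre/Cre, with 1 of them lower in Cre/+ past the adjusted threshold. Of the markers of the other 9 cell types, 0 passed it in either comparison, and some with an unadjusted p under 0.05 are not named here. The part of these cell types in the receptor values was not tested.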

How the data were processed

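Whole retinas were sequenced at P42 in 3 libraries for each of 3 genotypes, grouped by the genotype in the labels. The authors prepared strand-specific libraries with poly(A) selection, sequenced paired reads of 150 bases, used Trimmomatic for trimming and HISAT2 for alignment (mm10), and obtained gene levels from StringTie. The submitters' processing notes name the same tools, and also FastQC, SAMtools and DESeq2. Tool versions, the annotation and the strand setting of StringTie are not given in the sources used here. The tables deposited by the authors give TPM (per length, scaled to a fixed sum), FPKM (per length and library depth) and coverage (mean signal over a gene's bases) for each gene. They hold no counts, so the DESeq2 test was not repeated and no counting intervals are given. Aligned bases were estimated from the most frequent ratio of coverage to FPKM. In each library, 59.3% to 59.8% of the rows with coverage above 5 closely matched that ratio.

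Where a gene name had several rows, their TPM was added up. Genotypes were compared with limma 3.58.1 in R 4.3.3 (trend and robust prior) on log2(TPM + 1), a scale that understates the change of low genes, in 1 model of 9 libraries, for the 15198 of 25239 genes with a mean of at least 1 TPM. The fit was also run on simulated libraries with independent noise for each gene. These lack any trend shared between genes, such as that with GC content, so they do not test the fit under one. Alternatives were a pseudocount of 0.1, no filter, a replicate block, *Xist* as a covariate, only the genotypes compared, FPKM, median-ratio scaling, no robust prior and each library left out. Removal of a smooth GC trend (13629 genes) was added after seeing the data. Values in every library are given for the 2 highest members of each class (kainate and delta receptors together). They are also given for members with an unadjusted p under 0.05 in a pairwise contrast, and for members not overlapping +/+ in both contrasts. Genes of the companion lists are named at an unadjusted p under 0.05. Marker genes past it are named only in part. Some genes of the companion lists are not reported here. Members and lists were chosen with earlier results of these data known. Markers of 12 other retinal and neighbouring cell types were listed, and those that bear on a result are given by their sums. Other steps used Python 3.11.15, pandas 2.3.3 and scipy 1.17.1.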

Additional observations from a re-analysis of the deposited data

How the results depend on the processing

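No member passed the adjusted threshold in any of the 71 combinations of contrast and alternative setting, where the smallest adjusted p of limma over the members lay between 0.199 and 1.00. The median log2 difference of the 33 genes kept its direction in Cre/+ and ran from 0.024 to 0.083 with a library left out. In Cre/Cre it ran from −0.11 to 0.019, changing sign without Cre/Cre replicate 1. Counts of members at an unadjusted p under 0.05 moved, and are given with the share of all genes in the same fit. In Cre/+, where 2 members were reported, there were 0 with *Xist* as a covariate (9.99%), 4 with only the genotypes compared (16.8%), 6 with median-ratio scaling (2 higher and 4 lower, 15.8%) and 1, *Gria2*, with GC-adjusted values (6.58%). They ranged from 0 to 6 with a library left out (6 without +/+ replicate 1, 12.7%, 5 without Cre/Cre replicate 1, 16.4%, 1 without +/+ replicate 3, 5.17%, and 0 without Cre/+ replicate 3, 7.04%). In Cre/Cre, where 2 were reported, there was 1 without the filter (6.61%), 1 with *Xist* as a covariate (5.19%) and 1 without the robust prior (7.15%). They ranged from 0 to 5 with a library left out (0 without +/+ replicate 1, 7.03%, 0 without Cre/Cre replicate 1, 9.45%, 1 without +/+ replicate 2, 4.95%, 1 without Cre/+ replicate 2, 6.09%, and 5 without Cre/Cre replicate 3, 7.76%). The causes were not tested. Of 504 estimates of the 14 named members under the alternatives, 480 kept their direction. Those that changed it were *Grm7* in Cre/Cre with *Xist* as a covariate (−0.10) and with FPKM (−0.016), *Neto1* in Cre/Cre with FPKM (−0.023), and, with GC-adjusted values, *Gria2* (−0.14), *Grik1* (−0.0036), *Cacng3* (0.058) and *Neto2* (−0.043) in Cre/+ and *Grin1* (0.011), *Grik5* (0.0093) and *Neto1* (−0.042) in Cre/Cre. With a library left out, the estimates ranged from −0.077 to 0.062 for *Cacng3* and −0.039 to 0.11 for *Grik1* in Cre/+, and from −0.10 to 0.030 for *Gria2*, −0.12 to 0.043 for *Gria4*, −0.041 to 0.25 for *Grin2d*, −0.11 to 0.10 for *Grm7* and −0.17 to 0.20 for *Neto1* in Cre/Cre. Between libraries with the same replicate number, the correlation of deviations from the group means ran from −0.12 to 0.13 over 9 pairs and exceeded 0.1 in 1. Pairs with different numbers reached −0.19 and 0.26. With so few libraries these values cannot show whether the numbers stand for a batch. With the replicate number as a block, 0 members passed the adjusted threshold in each contrast, and 2 members in Cre/+ (9.84% of all genes) and 2 in Cre/Cre (6.69%) had an unadjusted p under 0.05. The members' median standard error of 0.12 on the log2 scale sets the size of difference that 3 libraries for each genotype could show, and without counts the share of depth in it is unknown.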
